A study of Homo sapiens with 12 samples.

Results

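The 10 tubulin genes TUBA1A, TUBA1B, TUBA1C, TUBB, TUBB2A, TUBB2B, TUBB3, TUBB4B, TUBB6 and TUBG1 were examined in RNA-sequencing data of HCT116 cells, a human colorectal carcinoma line. They were the rows carrying these gene names in a raw count table of 58233 genes, and each name matched 1 row. Of the 10 genes, 9 had enough counts to be tested, among 16657 tested genes in all, and TUBB2B did not. The parental line, HCT116 Tet-OsTIR1, carries the plant F-box protein OsTIR1 at the AAVS1 locus under a doxycycline (Dox)-dependent promoter. The SDS22-degron line was derived from it by tagging endogenous SDS22, a regulatory subunit of protein phosphatase PP1, with mAID and mClover through the PPP1R7 alleles, and all 4 groups therefore carry OsTIR1. Each line was untreated or kept for 48 h in 2 µg/ml Dox and 500 µM of the auxin IAA, which directs the mAID-tagged protein to degradation. Every group held 3 libraries that the labels call biological replicates. The degron line was obtained from isolated colonies. In comparing the lines or their responses, the degron and other differences of a colony from parental cells cannot be told apart.

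Microtubules are hollow polymers of α-tubulin and β-tubulin, which join as a dimer after folding by the chaperonin CCT and a set of tubulin cofactors. Vertebrates encode several closely related α and β isotypes, and γ-tubulin, encoded by TUBG1, sits in the ring complex from which microtubules grow at the centrosome and in the spindle. Dividing cells rebuild their microtubules as a spindle, and cells also adjust the stability of α- and β-tubulin mRNAs to the amount of free tubulin dimer, through the adapter TTC5.

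In the deposited table (GRCh38), 3 of the α genes form a cluster on chromosome 12: TUBA1B (ENSG00000123416, 49127782 to 49131397, minus strand), TUBA1A (ENSG00000167552, 49184796 to 49189324, minus strand) and TUBA1C (ENSG00000167553, 49188736 to 49274603, plus strand). TUBB (ENSG00000196230) lies on chromosome 6 from 30720201 to 30725426, and TUBB2A (ENSG00000137267, 3153669 to 3157526) and TUBB2B (ENSG00000137285, 3224261 to 3231730) lie near each other on the same chromosome. TUBB3 (ENSG00000258947) is on chromosome 16 from 89921392 to 89938761, TUBB4B (ENSG00000188229) on chromosome 9 from 137241213 to 137243707, TUBB6 (ENSG00000176014) on chromosome 18 from 12307669 to 12344320 and TUBG1 (ENSG00000131462) on chromosome 17 from 42609676 to 42615234. Each gene has 1 count per library, so its transcripts are not separated.

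The sequences before the transcription starts of TUBA1A, TUBA1B, TUBA1C, TUBB and TUBB4B are shown. They were chosen from the changes described below: the last 4 fell together in SDS22-degron cells and TUBA1A rose. TUBG1, TUBB6 and TUBB2A fell as well, and their sequences are not printed. The sequences shown are RefSeq windows of GRCh38.p14 holding the 250 bases before a start, in the direction of the gene. At the last start of TUBB the first 186 of these bases are printed, since the remaining 64 were found in transcripts of the gene. None of the stretches printed was found in a transcript of its own gene in GENCODE v44. TUBB and TUBA1C have more than 1 start in RefSeq, and the window of TUBA1C from 49227769, between those shown, is not printed. The RefSeq starts differ from the ends of the deposited gene models. The windows of TUBA1C and of the last start of TUBB lie wholly inside the models. Those of TUBA1A and of the first start of TUBB lie mostly inside. Capitals mark the letters CCAAT (or ATTGG, the same letters on the other strand), known as the CCAAT box, and TTTGAA (or TTCAAA), the letters of the cell cycle homology region.
TUBA1A, chr12:49189081-49189330, minus strand: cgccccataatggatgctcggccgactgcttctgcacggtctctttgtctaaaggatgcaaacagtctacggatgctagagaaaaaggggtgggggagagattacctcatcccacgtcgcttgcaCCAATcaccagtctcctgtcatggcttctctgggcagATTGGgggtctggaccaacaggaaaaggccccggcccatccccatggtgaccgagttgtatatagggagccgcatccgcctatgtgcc
TUBA1B, chr12:49131396-49131645, minus strand: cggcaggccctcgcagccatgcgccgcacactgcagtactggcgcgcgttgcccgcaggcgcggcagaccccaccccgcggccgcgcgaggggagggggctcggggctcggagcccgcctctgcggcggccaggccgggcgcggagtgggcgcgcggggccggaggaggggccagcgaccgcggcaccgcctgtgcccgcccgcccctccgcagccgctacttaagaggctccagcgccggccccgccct
TUBA1C, first start, chr12:49227676-49227925, plus strand: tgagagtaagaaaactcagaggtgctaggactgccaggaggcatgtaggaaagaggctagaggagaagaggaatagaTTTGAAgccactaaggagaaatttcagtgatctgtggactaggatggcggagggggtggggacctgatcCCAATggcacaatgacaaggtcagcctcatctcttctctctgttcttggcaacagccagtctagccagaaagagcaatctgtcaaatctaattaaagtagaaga
TUBA1C, last start, chr12:49264832-49265081, plus strand: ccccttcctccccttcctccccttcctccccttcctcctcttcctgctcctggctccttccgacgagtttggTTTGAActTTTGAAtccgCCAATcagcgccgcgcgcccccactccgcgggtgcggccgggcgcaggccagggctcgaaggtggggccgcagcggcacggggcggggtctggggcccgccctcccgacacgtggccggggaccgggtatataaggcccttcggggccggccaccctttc
TUBB, first start, chr6:30720102-30720351, plus strand: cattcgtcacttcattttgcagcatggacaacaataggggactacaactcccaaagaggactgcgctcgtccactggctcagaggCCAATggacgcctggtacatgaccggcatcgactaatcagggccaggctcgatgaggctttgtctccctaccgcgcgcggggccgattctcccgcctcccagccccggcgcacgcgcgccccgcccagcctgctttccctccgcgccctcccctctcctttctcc
TUBB, last start, chr6:30721388-30721573, plus strand: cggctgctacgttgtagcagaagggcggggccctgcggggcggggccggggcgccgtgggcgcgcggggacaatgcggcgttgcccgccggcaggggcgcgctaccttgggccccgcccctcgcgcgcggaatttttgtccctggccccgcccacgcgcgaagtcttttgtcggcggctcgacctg
TUBB4B, chr9:137241037-137241286, plus strand: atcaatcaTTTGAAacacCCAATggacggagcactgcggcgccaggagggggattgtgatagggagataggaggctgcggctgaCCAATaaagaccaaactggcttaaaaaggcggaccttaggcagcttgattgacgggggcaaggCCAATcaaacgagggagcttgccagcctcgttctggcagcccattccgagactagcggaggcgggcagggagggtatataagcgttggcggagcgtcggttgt
The window of TUBB4B held CCAAT 3 times, from 103, 166 and 232 bases before the start, and TTTGAA once. At the last start of TUBA1C, TTTGAA was found 2 times next to a CCAAT, and at the first start of TUBB 1 CCAAT was found, with neither motif in the window of its last start. TUBA1A held the CCAAT letters 2 times, once on each strand, whereas the window of TUBA1B, with a GC content of 81.2%, held neither motif.

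All 10 genes matched a RefSeq window, and 8 of 10 had CCAAT on either strand in at least 1 window, against 10102 of 27305 genes. TTTGAA was found for 2 of 10 (TUBA1C and TUBB4B) against 16.1%, TATAAA for 1 of 10 (TUBB2A) against 13.1%, and GGGCGG or CCGCCC for 8 of 10 against 46.2%. All were counted on either strand. Matches were allowed to overlap, genes with several starts count once if any window matched, and a match of letters does not show that a factor binds there.

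The total of counts over all genes was 12133915 in the shallowest and 14657508 in the deepest library. Levels are given as CPM, the count of a gene per unit of library total after TMM normalization, with normalization factors between 0.971 and 1.03. The degron acts on the SDS22 protein, so PPP1R7 mRNA, at 43.7 to 47.9 CPM on average in the 4 groups, does not check the depletion. The epithelial markers EPCAM, CDH1, KRT8, KRT18, KRT19 and CDX2 were detected and VIL1 and CDX1 were at 0 to 2 counts. Of 13 markers of fibroblasts, leukocytes, endothelium and neurons, 4 were at 0 in every library (COL1A2, CD3E, CDH5 and NEFL) and 2 passed the filter, COL1A1 and SYP. COL1A1, a fibroblast collagen, was higher after Dox/IAA in SDS22-degron cells (log2 fold change 0.94). In parental cells it was higher as well, at 9.88, 11.1 and 13.4 CPM untreated and at 17.2, 22.8 and 20.3 CPM treated. The sum of the 13 markers ranged from 12.2 to 15.6 CPM in untreated parental cells, from 18.7 to 24.4 CPM in the treated ones, and in SDS22-degron cells from 16.1 to 17.3 CPM without and from 22.5 to 33.9 CPM with Dox/IAA. Without COL1A1 it was at most 2.55 CPM in any library, and the part of COL1A1 in the tubulin results was not tested.

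Levels of the 10 genes were compared per kilobase of gene length, since counts grow with length. The lengths are those of the deposited gene models, which join all transcripts of a gene. Counts on pseudogenes, given below, are not part of these levels. In all 4 groups the order was TUBB, TUBB4B, TUBA1B, TUBA1C, TUBG1, TUBB6, TUBA1A, TUBB2A, TUBB3 and TUBB2B. The mean level of TUBB, the main β isotype of these cells, was 520.3 CPM per kb in untreated parental cells, 425 in the same cells after Dox/IAA, 427 in SDS22-degron cells without and 188 with Dox/IAA. TUBB3, the isotype best known from neurons, was at 1.16, 2.00, 0.762 and 0.946 CPM per kb in the same order. Neighbours in this order were mostly separate in every library. In untreated parental cells the libraries of TUBB4B and TUBA1B overlapped, and those of TUBA1A and TUBB2A overlapped in both untreated lines. In treated SDS22-degron cells TUBB overlapped TUBB4B, and TUBB6 overlapped both TUBG1 and TUBA1A.

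**Figure D1:**
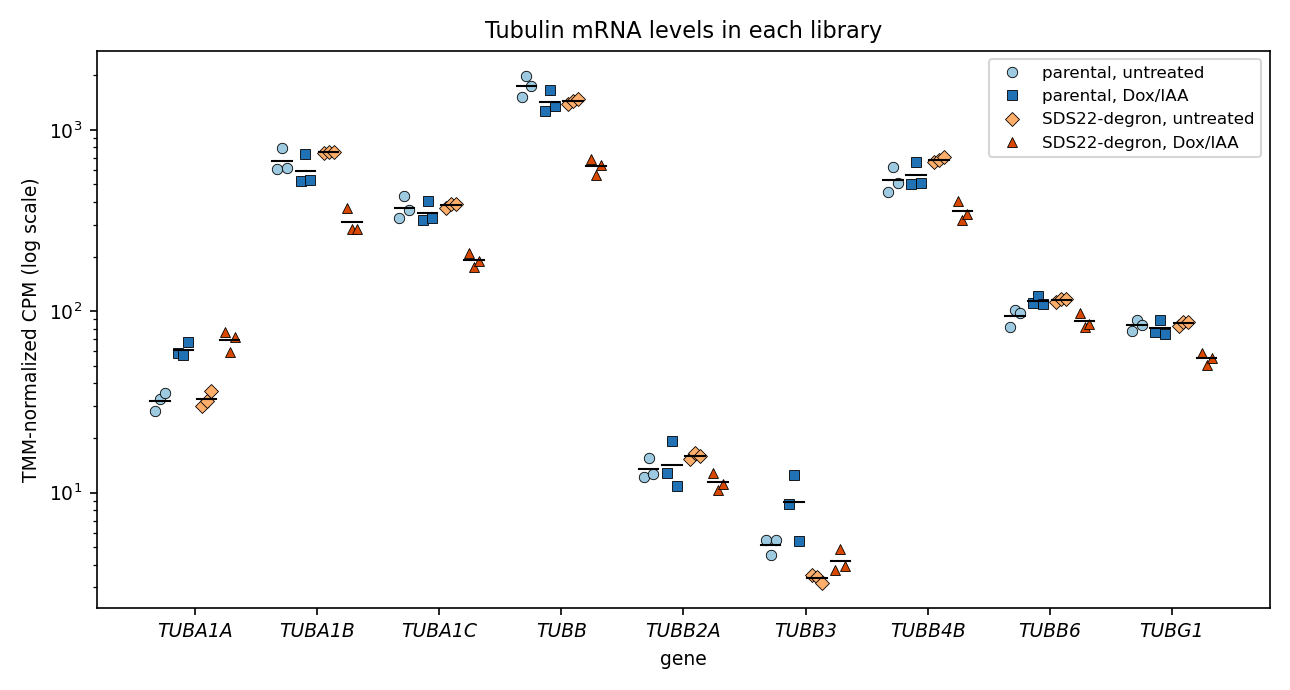
TMM-normalized CPM of the 9 tested tubulin genes on a log axis, with 1 point per library and a bar at the mean of each group. For TUBA1B, TUBA1C, TUBB, TUBB4B and TUBG1 the 3 libraries of Dox/IAA-treated SDS22-degron cells lie below all others, and for TUBA1A both treated groups lie above both untreated groups.

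The first question was what Dox/IAA did to the tubulin mRNAs in SDS22-degron cells. Of the 9 tested genes, 7 fell and 1, TUBA1A, rose at an adjusted p under 0.05 (Benjamini-Hochberg adjustment over all tested genes of the p of edgeR's quasi-likelihood test, from which every adjusted p below comes). In this comparison 51.5% of all tested genes passed that test, 25.5% lower and 26% higher. At the study's cut-off (p under 0.05 without adjustment and log2 fold change beyond 1 in size) TUBA1A, TUBA1B, TUBA1C and TUBB remained, 4 of 9 against 7.83% of all tested genes. The median log2 fold change was -0.64 over the 9 genes and 0.0046 over all tested genes. The α and β genes with the highest levels fell by the most, and in the untreated line their replicates lay close together.

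TUBA1B encodes the main α-tubulin of these cells. Its level was 745, 752 and 754 CPM in the untreated SDS22-degron libraries and 369, 285 and 282 CPM in the treated ones. The treated libraries were all below the untreated ones, with replicate 1 above replicates 2 and 3. The log2 fold change was -1.27 (standard error 0.129, edgeR adjusted p = 2.57e-07). TUBA1C, its neighbour on chromosome 12 and the α isotype next in level, went from 369.8, 391 and 389.5 CPM to 210.0, 175 and 189 CPM. This is a fall to 49.9% of the untreated level (log2 fold change -1.003, standard error 0.102, edgeR adjusted p = 2.42e-07), with no overlap between the groups.

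TUBB was at 1396, 1434 and 1477 CPM in untreated SDS22-degron cells and at 693, 563 and 637 CPM after Dox/IAA. The groups were far apart, and the log2 fold change was -1.19 (standard error 0.104, edgeR adjusted p = 4.73e-08). TUBB4B, a broadly expressed β isotype, was at 662, 679 and 709 CPM untreated and at 407, 318 and 342 CPM treated. It fell to 52.0% (log2 fold change -0.94, standard error 0.118, edgeR adjusted p = 2.61e-06), and replicate 1 was again the highest of the treated libraries.

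TUBB6, a less abundant β isotype, went from 112, 117 and 117 CPM to 98.3, 81.3 and 84.7 CPM. The groups did not overlap, and the fall was smaller (log2 fold change -0.38, standard error 0.0841, edgeR adjusted p = 0.000897). TUBB2A, a β isotype at a low level here, was at 15.2, 16.4 and 15.9 CPM untreated and at 12.8, 10.4 and 11.2 CPM treated. Its log2 fold change of -0.47 had a 95% confidence interval of -0.81 to -0.13 (edgeR adjusted p = 0.0220). This call was lost without treated replicate 2 (log2 fold change -0.40, adjusted p = 0.0822), without treated replicate 3 (-0.47, adjusted p = 0.0527) and without untreated replicate 2 (-0.44, adjusted p = 0.0639), and over all alternatives that were refitted the adjusted p lay between 0.000917 and 0.0822.

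TUBG1 encodes γ-tubulin. It was at 83.1, 87.6 and 86.6 CPM in untreated SDS22-degron cells and at 58.7, 50.7 and 55.4 CPM in treated ones. All treated libraries were lower, with a log2 fold change of -0.64 (standard error 0.0805, edgeR adjusted p = 2.76e-06).

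TUBA1A, an α isotype that is prominent in the developing brain, moved the other way. It was at 30.2, 31.8 and 36.4 CPM untreated and at 76.8, 59.8 and 71.8 CPM treated. No treated library overlapped an untreated one, and the level was 2.12-fold higher (log2 fold change 1.08, standard error 0.106, edgeR adjusted p = 1.60e-07). TUBB3 was at 3.50, 3.44 and 3.19 CPM untreated and at 3.74, 4.88 and 3.95 CPM treated, a log2 difference of 0.31 (95% confidence interval -0.23 to 0.85, edgeR adjusted p = 0.333) that did not pass the test. TUBB2B had 0 to 3 counts in every library of the 4 groups, where 3 counts correspond to 0.206 to 0.253 CPM, and no fold change is given. In bulk RNA, fewer cells of 1 kind or cell cycle stage and less mRNA per cell cannot be told apart.

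The same treatment was then compared within the parental line, where SDS22 carries no degron. Of the 9 tested genes, 1 fell (TUBB) and 3 rose (TUBA1A, TUBB3 and TUBB6), against 31.6% of all tested genes called, 15.7% lower and 15.9% higher. At the study's cut-off 0 of 9 remained, against 3.14%. The rise of TUBA1A was close in size to that in SDS22-degron cells. It went from 28.0, 33.0 and 35.3 CPM to 58.8, 57.0 and 67.9 CPM. The groups did not overlap and the log2 fold change was 0.93 (standard error 0.108, edgeR adjusted p = 7.20e-06). TUBA1A was the 1 member of these 4 that kept an adjusted p under 0.05 in each of the 23 alternative fits, although its log2 fold change was below the study's cut-off.

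The abundant isotypes overlapped between treated and untreated parental cells. TUBA1B was at 608, 798 and 617 CPM untreated and at 521, 733 and 527 CPM treated. In both groups replicate 2 was the highest, and each treated library was below the untreated library of the same number. The log2 difference was -0.18 (95% confidence interval -0.45 to 0.08, edgeR adjusted p = 0.290). With the replicate number as a block it was -0.19 (adjusted p = 0.200). The value depended on replicate 2: without that treated library it was -0.36 and passed (adjusted p = 0.0191), and without that untreated library it was -0.042 (adjusted p = 0.841). TUBA1C (-0.09), TUBB4B (0.08), TUBB2A (0.08) and TUBG1 (-0.06) had small log2 differences that did not pass either. TUBG1, for example, was at 78.1, 89.4 and 83.7 CPM untreated and at 76.6, 89.6 and 74.9 CPM treated, so that its groups overlapped throughout.

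TUBB was at 1527, 1979.8 and 1736 CPM in untreated parental cells and at 1271, 1649 and 1361 CPM in treated ones. The groups overlapped, with each treated library below the untreated one of the same number, and the log2 fold change was -0.29 (standard error 0.103, edgeR adjusted p = 0.0370; 0.000229 to 0.187 over the alternative fits). The call was lost without untreated replicate 2 (log2 fold change -0.19, adjusted p = 0.187) or 3 (-0.30, adjusted p = 0.0676), without treated replicate 1 (-0.21, adjusted p = 0.169) or 3 (-0.26, adjusted p = 0.123), and with scaling by library size (-0.23, adjusted p = 0.101) or upper quartile (-0.27, adjusted p = 0.053). It was also lost with only the compared groups in the fit (-0.29, adjusted p = 0.0855).

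TUBB6 rose from 82.0, 102 and 97.6 CPM to 110.4, 122 and 109.7 CPM, without overlap (log2 fold change 0.28, edgeR adjusted p = 0.0165). The call of TUBB6 was lost without treated replicate 2 (log2 fold change 0.23, adjusted p = 0.055), without untreated replicate 1 (0.18, adjusted p = 0.106) and after a correction for GC content (0.23, adjusted p = 0.0554), within a range of 0.00499 to 0.106 over the alternative fits. TUBB3 rose from 5.49, 4.53 and 5.44 CPM to 8.62, 12.6 and 5.43 CPM. Treated replicate 3 was within the untreated range, and without treated replicate 2 the log2 fold change went from 0.78 (edgeR adjusted p = 0.0112) to 0.46 (adjusted p = 0.0798, the highest over the alternative fits, where the lowest was 3.09e-05).

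The interaction tests whether the effect of Dox/IAA differed between the lines. It was negative and past the threshold for 6 of the 9 tested genes, TUBA1B, TUBA1C, TUBB, TUBB4B, TUBB6 and TUBG1, and positive for none. Of all tested genes, 14.4% passed in this comparison, 8.35% with a negative and 6.03% with a positive value. At the study's cut-off TUBA1B and TUBB4B remained, 2 of 9 against 3.6%. The difference of the log2 effects was -1.08 for TUBA1B (standard error 0.180, edgeR adjusted p = 0.000603) and -1.02 for TUBB4B (standard error 0.165, edgeR adjusted p = 0.000458). These 6 calls kept an adjusted p under 0.05 in each of the 22 alternative fits. For TUBA1A the difference was 0.15 (95% confidence interval -0.16 to 0.47, edgeR adjusted p = 0.549), so a difference of up to 0.47 in its response to Dox/IAA lies within the interval. TUBB2A had an interaction of -0.55 (edgeR adjusted p = 0.121), which passed without treated parental replicate 3 (-0.71, adjusted p = 0.0352) and was smaller without treated parental replicate 2 (-0.26, adjusted p = 0.389). TUBB3 had one of -0.47 (edgeR adjusted p = 0.393), between -0.73 and -0.13 over the alternative fits.

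**Figure D2:**
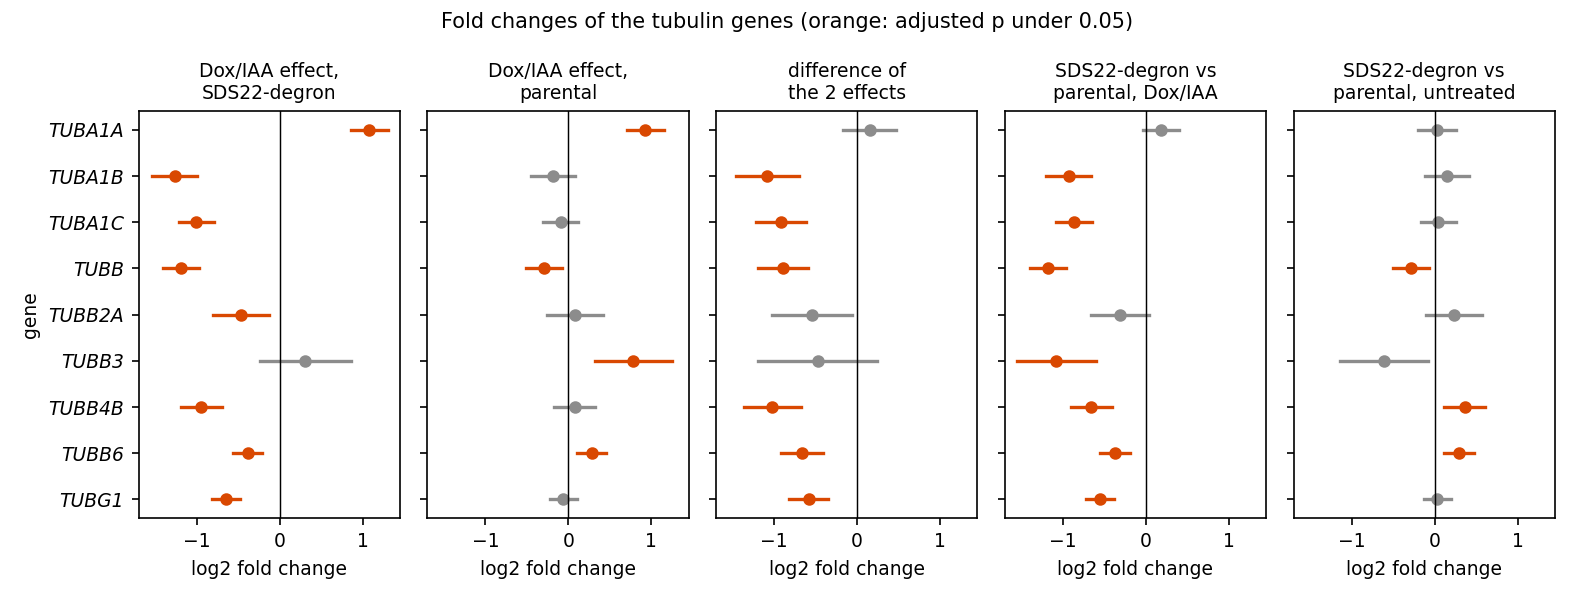
Log2 fold changes of the 9 tested tubulin genes with 95% confidence intervals in the 5 comparisons, in orange where the adjusted p is under 0.05. TUBA1A lies right of 0 for Dox/IAA in both lines (1.08 and 0.93), while TUBA1B, TUBA1C, TUBB, TUBB4B and TUBG1 lie left of 0 in SDS22-degron cells and in the difference of the effects.

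The treated lines were also compared with each other, as in the study's own contrast. This comparison shares libraries with those above and is not separate evidence. In treated SDS22-degron cells 7 of the 9 tested genes were lower than in treated parental cells and 0 were higher, where 44.9% of all tested genes were called, 23.1% lower and 21.8% higher. At the study's cut-off TUBB and TUBB3 remained, 2 of 9 against 6.63%. The libraries of the lines did not overlap for 7 of 9 members, and did not overlap for 52.9% of all tested genes. TUBB had a log2 fold change of -1.18 (standard error 0.104, edgeR adjusted p = 7.89e-08), TUBA1B one of -0.93 (edgeR adjusted p = 1.27e-05) and TUBA1C one of -0.87 (edgeR adjusted p = 2.02e-06). TUBB4B (-0.66), TUBG1 (-0.55) and TUBB6 (-0.37) were lower as well. TUBA1A differed by 0.18 (95% confidence interval -0.03 to 0.40, edgeR adjusted p = 0.160), and passed without treated SDS22-degron replicate 2 (0.28, adjusted p = 0.0378) but was 0.11 (adjusted p = 0.475) without replicate 1 of that group. TUBB2A differed by -0.31 (edgeR adjusted p = 0.135), by -0.47 (adjusted p = 0.0246) without treated parental replicate 3 and by -0.025 (adjusted p = 0.902) without treated parental replicate 2. TUBB3 was lower (-1.08, edgeR adjusted p = 0.000783), and the median over the tested genes of its chromosome, 16, was -0.31 in this comparison and -0.30 between the untreated lines. The part of chromosome 16 in the difference was not tested.

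Before treatment the lines differed less. In untreated SDS22-degron cells TUBB was lower than in untreated parental cells (log2 fold change -0.28, edgeR adjusted p = 0.0461), and TUBB4B (0.36, adjusted p = 0.0259) and TUBB6 (0.29, adjusted p = 0.0132) were higher, against 28.2% of all tested genes called, 15% lower and 13.2% higher. At the study's cut-off 0 of 9 remained, against 4.14%. TUBB4B was at 455.5, 627 and 512 CPM in parental and at 662, 679 and 709 CPM in SDS22-degron libraries, with no overlap. None of these 3 calls held under every alternative, and the adjusted p ran from 0.000232 to 0.259 for TUBB, from 1.82e-05 to 0.118 for TUBB4B and from 0.00436 to 0.0673 for TUBB6. TUBB was lost without untreated SDS22-degron replicate 1, 2 or 3 (adjusted p = 0.130, 0.109 and 0.0786), untreated parental replicate 2 or 3 (0.259 and 0.0830), treated SDS22-degron replicate 1 or 3 (0.0578 and 0.0710) and treated parental replicate 3 (0.0525), and with scaling by library size (0.0764) or upper quartile (0.0767). TUBB4B was lost without untreated SDS22-degron replicate 2 or 3 (adjusted p = 0.0623 and 0.0838) and untreated parental replicate 1 or 3 (0.118 and 0.0798), and TUBB6 without untreated parental replicate 1 (0.0673). TUBB3 differed by -0.61 (edgeR adjusted p = 0.0818) and passed without treated parental replicate 2 (adjusted p = 0.0236) or 3 (adjusted p = 0.0240), with adjusted p between 0.00442 and 0.188 over the alternative fits.

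The tubulin mRNAs were next summed by class. The summed level of all α genes was 1100 ± 165 CPM (SD, n = 3) in untreated and 1030 ± 171 CPM in treated parental cells. In SDS22-degron cells it went from 1209.9 ± 20.7 CPM to 599 ± 74.4 CPM, or 49.5% of the untreated mean. The summed level of all β genes went from 2428 ± 330 CPM to 2168 ± 304 CPM in parental cells and from 2293 ± 68.5 CPM to 1129 ± 124 CPM in SDS22-degron cells, or 49.2%. In parental cells both sums were lower in each treated library than in the untreated library of the same number. Both classes thus kept about the same ratio to each other, with an α to β ratio per kb between 0.383 and 0.395 in the untreated and between 0.378 and 0.401 in the treated SDS22-degron libraries. In parental cells this ratio ranged from 0.331 to 0.358 untreated and from 0.351 to 0.367 treated.

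Within the α class the composition moved in both lines. The share of TUBA1A in the summed α level per kb was 3.34 ± 0.505% in untreated and 6.89 ± 1.48% in treated parental cells, and 3.06 ± 0.268% in untreated and 13.1 ± 0.974% in treated SDS22-degron cells (SD, n = 3). The mean level of TUBA1A itself went from 9.39 to 17.9 CPM per kb in parental and from 9.59 to 20.3 in SDS22-degron cells. The summed α level it is divided by went from 284 to 266 CPM per kb in parental and from 313 to 155 in SDS22-degron cells. The share of TUBA1B went from 66.4 ± 1.23% to 62.3 ± 2.10% in parental and from 67.1 ± 0.665% to 56.1 ± 2.40% in SDS22-degron cells. That of TUBA1C lay between 25.5% and 29.2% in all 12 libraries. Among β isotypes, the share of TUBB was 64.0 ± 0.689% in untreated parental, 57.4 ± 0.902% in treated parental, 53.4 ± 0.139% in untreated SDS22-degron and 47.4 ± 0.970% in treated SDS22-degron cells. TUBB4B had 30.9 ± 0.857%, 35.8 ± 0.859%, 40.4 ± 0.223% and 42.4 ± 1.05% in the same order, and the 4 groups did not overlap in either share. Shares and sums leave out counts on pseudogenes, given below, and were not tested.

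**Figure D3:**
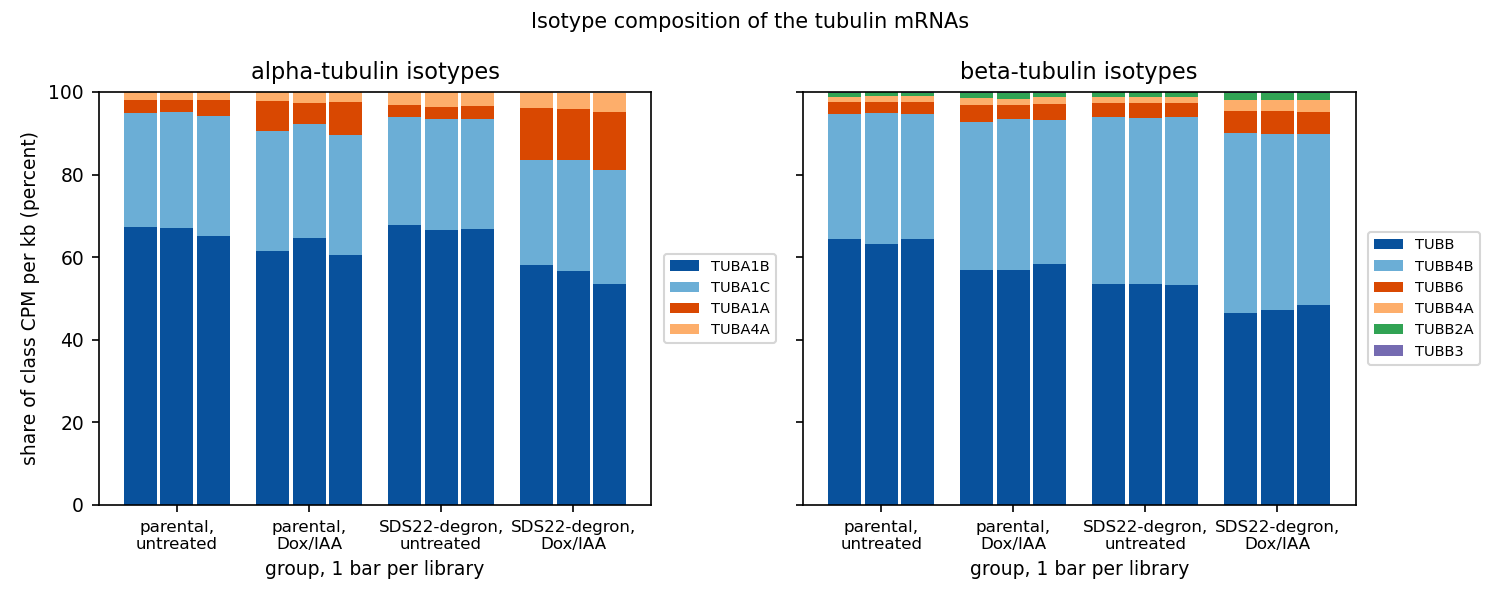
Share of each isotype in the summed CPM per kb of its class in percent, α on the left and β on the right, with 1 bar per library. The TUBA1A band widens from about 3.06% to 13.1% with Dox/IAA in SDS22-degron cells and from 3.34% to 6.89% in parental cells, and the TUBB band is widest in untreated parental cells (64.0%). A band also widens where the other isotypes of its class fall.

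Tubulin genes resemble each other in sequence and have many processed pseudogenes, so reads can be assigned to the wrong copy. Stretches of 75 bases, the read length, were taken from the annotated transcripts of each gene and searched on either strand in those of all other genes. Of the stretches of TUBA1B 39.1% occurred elsewhere, 34.9% in TUBA1B-AS1, an antisense annotation that overlaps it, and 10.1% in each of TUBA1A and TUBA1C. TUBB2A shared 30.5%, of which 28.4% with TUBB2B, and TUBB2B shared 25.2%, with 20.4% in TUBB2A. For TUBA1C the share was 26.6%, with 12.3% in an overlapping antisense annotation and 10.1% in TUBA1A, and for TUBA1A it was 17.3%. TUBB shared 13.7%, with 10.9% in an overlapping antisense annotation and 4.98% in the pseudogene TUBBP1. Nearly all of the 19.2% of TUBB3 lay in a readthrough annotation of its own locus, and all of the 15.4% of TUBB6 in AFG3L2. TUBG1 shared 7.08%, with 6.33% in TUBG2, and TUBB4B shared 6.59%. The antisense annotations at TUBA1B, TUBA1C and TUBB named here had at most 43 counts in any library, and the readthrough annotation at TUBB3 had 0. TUBA1A and TUBA1C, which moved in opposite directions in SDS22-degron cells, lie on opposite strands with overlapping gene bodies, and 11.2% of the stretches of TUBA1A occurred in TUBA1C. TUBB6 overlaps AFG3L2 and TUBG1 overlaps FAM134C on the opposite strand, with 1116 to 1768 and 796 to 1488 counts, and although the libraries were stranded, whether strand was used in counting is not given in the sources used here.

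Reads were counted on pseudogenes in all 12 libraries. Of the 75-base stretches of TUBAP2 11.5% and of TUBBP1 13.6% occurred in another gene, and 0% of those of TUBBP6, TUBG1P and TUBB3P1. Only exact matches were searched, and the part of reads from the parent genes in the pseudogene counts was not tested. TUBAP2 had between 31.3% and 35.8% of the counts of TUBA1B in the 12 libraries, TUBBP1 between 7.70% and 9.15% of those of TUBB, TUBBP6 between 2.28% and 2.93% of those of TUBB, and TUBG1P between 23.8% and 31.1% of those of TUBG1. Their fold changes lay near those of the parent gene. For Dox/IAA in SDS22-degron cells TUBAP2 had a log2 fold change of -1.19 beside -1.27 for TUBA1B, TUBBP1 -1.20 and TUBBP6 -1.35 beside -1.19 for TUBB, and TUBG1P -0.50 beside -0.64 for TUBG1. TUBB3P1 had 84.1% to 154% of the counts of TUBB3, so about as many reads were counted on this pseudogene as on TUBB3. Adding the pseudogene counts to their parent gene, an alternative chosen after seeing the data, left 7 members called between the treated lines and 8 for Dox/IAA in SDS22-degron cells, and brought TUBB3 past the threshold between the untreated lines (-0.72, edgeR adjusted p = 0.00442).

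**Figure D4:**
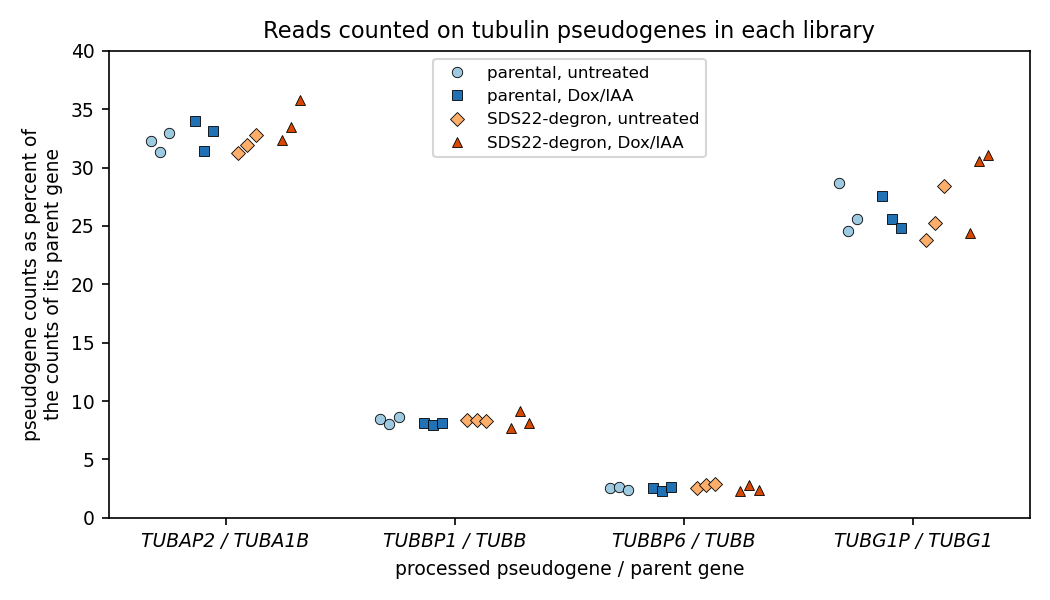
Counts on 4 processed pseudogenes as a percent of the counts of their parent gene, with 1 point per library. Points of the 4 groups lie at about the same height for each pair, between 31.3% and 35.8% for TUBAP2 and between 7.70% and 9.15% for TUBBP1.

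Of 12 further tubulin genes in the table, 5 passed the filter. TUBA4A, another α isotype, was at 22.0 ± 4.04 CPM in untreated parental and 42.7 ± 2.71 CPM in untreated SDS22-degron cells (SD, n = 3), a log2 difference of 0.95 (edgeR adjusted p = 0.000110). With Dox/IAA it fell in SDS22-degron cells to 25.5 ± 2.74 CPM (log2 fold change -0.75, edgeR adjusted p = 0.000348), with an interaction of -0.93 (edgeR adjusted p = 0.00666). TUBG2, the other γ-tubulin gene, moved opposite to TUBG1. It rose with Dox/IAA in SDS22-degron cells from 13.8 ± 0.987 CPM to 23.1 ± 4.25 CPM (log2 fold change 0.74, edgeR adjusted p = 4.97e-05) and in parental cells by 0.43 (adjusted p = 0.0158). TUBD1 and TUBE1 encode δ- and ε-tubulin, which belong to the centriole. TUBD1 fell in SDS22-degron cells (-0.77, edgeR adjusted p = 6.75e-05), and TUBE1 fell in both lines (-0.55 in SDS22-degron and -0.73 in parental cells, edgeR adjusted p = 0.000996 and 0.000169). TUBB4A had a log2 difference of -0.07 in SDS22-degron cells (edgeR adjusted p = 0.635) and passed in none of the 5 comparisons.

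Genes that act on tubulin were counted by list. The CCT chaperonin, which folds α- and β-tubulin and actin, had 8 of 8 tested subunits lower with Dox/IAA in SDS22-degron cells, 6 of 8 lower in parental cells, and a negative interaction for 5 of 8, where 8.35% of all tested genes had one. The median log2 fold change of the 8 was -0.66 in SDS22-degron and -0.24 in parental cells. TCP1 (-0.85, edgeR adjusted p = 3.16e-07) and CCT5 (-0.78, adjusted p = 1.15e-07) are examples in SDS22-degron cells. The γ-tubulin ring complex and the augmin subunits that recruit it to spindle microtubules had 15 of 17 tested genes lower and 0 higher in SDS22-degron cells, 4 lower in parental cells and 8 with a negative interaction. Among these, TUBGCP4 fell by 0.76 and TUBGCP3 by 0.46 on the log2 scale (edgeR adjusted p = 1.39e-07 and 8.39e-05), and the augmin subunit HAUS5 fell by 0.74 (adjusted p = 2.23e-05). The share of all tested genes that were lower was 25.5% in SDS22-degron and 15.7% in parental cells.

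Other lists moved in both directions. Prefoldin, which hands tubulin to CCT, had 2 of 6 genes lower and 1 higher in SDS22-degron cells, with PFDN6 at -0.50 (edgeR adjusted p = 6.98e-05) and PFDN5 at 0.20 (adjusted p = 0.0134). The 7 tubulin cofactors, which assemble and take apart the dimer, were 2 lower and 2 higher, with TBCD at -0.41 (edgeR adjusted p = 0.000280) and TBCEL at 0.51 (adjusted p = 2.26e-05). Enzymes that modify tubulin, listed with their partner proteins, were 1 lower and 8 higher of 20 in SDS22-degron cells. In parental cells they were 1 lower and 5 higher, and 26% and 15.9% of all tested genes were higher in the 2 lines. In the interaction 0 of the 20 were negative and 1 positive, against 8.35% and 6.03% of all tested genes. HDAC6, a tubulin deacetylase, rose by 0.50 in SDS22-degron cells (edgeR adjusted p = 3.36e-05) and by 0.24 in parental cells (adjusted p = 0.0274). Its interaction of 0.26 did not pass (edgeR adjusted p = 0.135). AGTPBP1, which removes glutamates from tubulin tails, rose by 0.46 in SDS22-degron cells (edgeR adjusted p = 0.000152), with an interaction of 0.52 (adjusted p = 0.00661). Of the autoregulation genes, TTC5, which recognizes nascent tubulin, had a log2 difference of 0.11 in SDS22-degron cells (edgeR adjusted p = 0.269). Its partner SCAPER rose by 0.42 (edgeR adjusted p = 0.00582) and CNOT11, a subunit of the mRNA deadenylase complex, fell by 0.23 on the log2 scale (adjusted p = 0.0127). In parental cells 0 of these 3 genes passed, and in the interaction 0 of 3. Of 35 microtubule-binding proteins and kinesins 12 were lower and 10 higher in SDS22-degron cells, against 25.5% and 26% of all tested genes. In the interaction 11 were negative and 2 positive, against 8.35% and 6.03%. The spindle genes PRC1 (-1.23), KIF2C (-1.24) and NUSAP1 (-1.23) and the microtubule destabilizer STMN1 (-0.72) fell, with edgeR adjusted p between 5.96e-09 and 6.30e-08. Of those that were higher, MAP2 rose by 0.87 and MAPRE3 by 0.74 (edgeR adjusted p = 1.33e-05 and 1.19e-05). Both also rose in parental cells, by 0.88 and 0.46 (edgeR adjusted p = 0.000216 and 0.00467). Their interactions of -0.011 and 0.28 did not pass (edgeR adjusted p = 0.978 and 0.248).

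**Figure D5:**
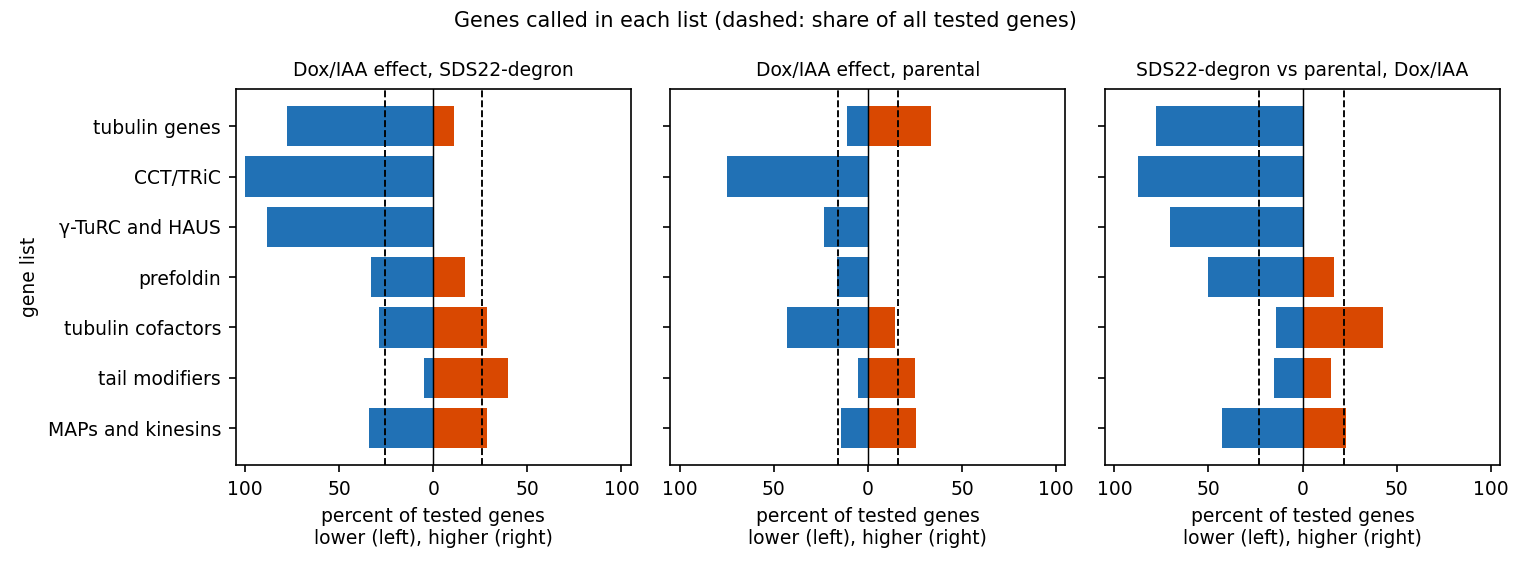
Percent of the tested genes of each list that were lower (left, blue) or higher (right, orange) at an adjusted p under 0.05 in 3 comparisons, with the share of all tested genes as dashed lines. The CCT subunits reach 8 of 8 and the γ-tubulin ring and augmin genes 15 of 17 lower for Dox/IAA in SDS22-degron cells.

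Over the 12 libraries the members fell into patterns that are given here as a description, since the points share the 4 groups and their libraries. TUBA1C and TUBG1 had a Pearson r of 0.996 of their log2 CPM, TUBA1B and TUBA1C of 0.985 and TUBB and TUBA1C of 0.973. TUBA1A had negative values with TUBA1B (-0.74), TUBB (-0.68) and TUBG1 (-0.68), and TUBB3 had values between 0.03 and 0.27 with every other tested member. Among 10834 genes outside the family with a mean of at least 10 CPM, those most like each member were OAZ2 and IGSF8 for TUBA1A (r = 0.985 for both), GMNN (0.997) and ERCC6L (0.993) for TUBA1B, ERCC6L (0.992) and NCAPG (0.990) for TUBA1C, and PKMYT1 and NUP188 (0.996 for both) for TUBB. GAS2L3 (0.987) and FEN1 (0.983) were most like TUBB4B, PLK4 (0.988) and SUV39H1 (0.987) most like TUBG1, and FAM111B (0.963) and C12orf75 (0.918) most like TUBB6. The values were lower for TUBB2A, with PSMC2 (0.912) and PSMA3 (0.897), and for TUBB3, with IRF5 and SVIP (0.901 for both).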

How the data were processed

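For 12 libraries the authors deposited unnormalized counts (poly-A selected, stranded, single reads of 75 bases), with gene position, length in bases and, per the file headers, GC content as a percent. The submitters' processing notes name GRCh38, cutadapt 1.15, Bowtie2 2.3.3.1, STAR 2.5.2b, SAMtools 1.5 and featureCounts 1.5.3. How reads matching several genes were counted is not given in the sources used here. All 12 columns were mapped to groups by the labels, and 0 were left unmapped. The filter was filterByExpr of edgeR (by group, minimum count 10). In R 4.3.3, edgeR 4.0.16 then scaled libraries by TMM and fitted 1 mean per group, with its quasi-likelihood F test. Benjamini-Hochberg adjustment covered 16657 genes, with a threshold of 0.05. The common biological coefficient of variation was 7.48%. The procedure was tested on simulated data. For correlations, log2 CPM had a prior count of 2.

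The members and lists were chosen with earlier results of these data known. The text names the 10 members, other tubulin genes that passed the filter, up to 4 genes per list that had the smallest p in the contrast of treated lines, and for each member the 2 genes with the highest correlation. Not all named by this rule are printed. MAP2 and MAPRE3 are named beside it, as microtubule-binding genes that rose with Dox/IAA in both lines. Shared stretches of 75 bases were counted in GENCODE v44 transcripts, and promoter windows came from RefSeq (GRCh38.p14). Whether replicate numbers pair libraries was checked from deviations from the group means. For the treated lines (r = 0.101, 0.133 and 0.138) and for Dox/IAA in parental cells (0.124, 0.246 and 0.131) each same-numbered pair was above 0.1. The alternatives comprised a likelihood ratio test, DESeq2 1.42.0, scaling by library size or upper quartile, no filter, a 1 CPM filter, only the groups compared, the replicate block, a GC correction alone or with the block, each library left out, the cut-off of the study (p under 0.05, absolute log2 fold change over 1), and, chosen after seeing the data, pseudogene counts added to the parent gene.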

Additional observations from a re-analysis of the deposited data

Results flagged for a closer look

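For 6 tubulin genes the effect of Dox/IAA differed between SDS22-degron and parental cells in a test of the difference itself, the interaction term in the quasi-likelihood fit of edgeR, Benjamini-Hochberg adjusted, which 14.4% of all tested genes passed. The difference of the log2 fold changes was -1.08 for TUBA1B, -1.02 for TUBB4B, -0.91 for TUBA1C, -0.89 for TUBB, -0.66 for TUBB6 and -0.58 for TUBG1, with adjusted p between 0.000339 and 0.002. In SDS22-degron cells, the 3 treated libraries were below the 3 untreated ones for each of the 6 genes, and the libraries of these groups did not overlap for 59.9% of all tested genes.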

How the results depend on the processing

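The 7 calls between the treated lines and the 6 calls in the interaction kept an adjusted p under 0.05 in each alternative fit, as did 7 of 8 calls for Dox/IAA in SDS22-degron cells, 1 of 4 for Dox/IAA in parental cells and 0 of 3 for the untreated lines. With single libraries left out, the number of members called was 7 to 8, 6 to 7, 7 to 8, 3 to 4 and 1 to 4 in this order, with the same members lost as named in the results. The cut-off of the study, which also requires a fold change, left fewer: 2 members between the treated lines, 0 between the untreated lines, 4 for Dox/IAA in SDS22-degron cells, 0 in parental cells and 2 in the interaction.

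With the replicate block, TUBB3 passed between the untreated lines (-0.61, edgeR adjusted p = 0.0470), and 4 members were called there; the block changed no other call of a member. With no filter, TUBB3 passed there as well (adjusted p = 0.00852), TUBB2A passed in the interaction (0.0265) and between the treated lines (0.0457), and TUBA1B passed for Dox/IAA in parental cells (0.0489). TUBB3 also passed between the untreated lines with only these groups in the fit (0.0122). Over the 4 groups, 7 of 18 same-numbered pairs correlated above 0.1. Correlations of each library with those of the other groups were averaged by replicate number. The mean was highest for its own number in 12 of 12 libraries, a hint from the data and not from the design.

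Differences that changed sign were all uncalled. With the GC correction and with the GC correction and replicate block, the differences between the untreated lines were -0.033 and -0.034 for TUBA1A, -0.012 and -0.00530 for TUBA1C and -0.015 and -0.013 for TUBG1, and for Dox/IAA in parental cells they were -0.0183 and -0.0185 for TUBB4B. With single libraries left out, ranges that crossed 0 were, between the untreated lines, -0.051 to 0.10 for TUBA1A, -0.034 to 0.18 for TUBA1C and -0.00508 to 0.10 for TUBG1. For Dox/IAA in parental cells they were -0.21 to 0.033 for TUBA1C, -0.19 to 0.24 for TUBB2A, -0.064 to 0.22 for TUBB4B and -0.055 to 0.35 for TUBA4A. They were -0.13 to 0.28 for TUBA4A between the treated lines, -0.16 to 0.055 for TUBB4A with Dox/IAA in SDS22-degron cells and -0.011 to 0.16 for PFDN4 in the interaction. The cause was not tested. The depth leaves TUBB2B, with at most 3 counts per library, without a fold change, and TUBB3 and TUBB2A with wider intervals than the other members.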
